A study of Mus musculus with 115 samples.

Results

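Ppp1r10, Arhgap32, Banp, Gpr22, Mpv17l and Tet1 are 6 genes, of 23930 amplicons on the mouse transcriptome panel, that were chosen because their change between Ant1 knockout and wild type hearts differed between hearts given the Ant1 vector and hearts given the control vector. All 6 passed the filter on low counts and are among the 15403 genes tested. They were chosen by the measured counts of the knockout and wild type hearts, so the knockout changes under either vector, and the changes with the vector in knockout and in wild type hearts, are described here with no test. The same hearts gave 77 genes whose difference of knockout changes passed an adjusted p of 0.05 in edgeR, which is 0.500% of the genes tested, and 64 of the 77 had opposite signs under the vectors.

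The study measured total RNA of C57BL/6JEiJ mouse hearts by targeted amplicon sequencing, with 1 amplicon per gene. Mice were injected into the pericardium with 2.5e+11 vector genomes of AAV2/9Des-Gfp-mAnt1, called the Ant1 vector here, or of AAV2/9Des-Gfp, called the control vector. The vector names carry Des and Gfp, and that of the Ant1 vector also mouse Ant1 (Slc25a4, the adenine nucleotide carrier of heart mitochondria). How many heart cells took up a vector was not measured in the files used here. With the Ant1 vector there were 3 Ant1 -/- ND6 P25L hearts (knockout ND6, carrying a change in the mitochondrial gene ND6), 4 Ant1 -/- hearts (knockout) and 3 C57BL/6JEiJ hearts (wild type). With the control vector there were 3 knockout ND6, 3 knockout and 4 wild type hearts. Hearts 61 and 91, both knockout ND6, carry the label of the control vector and a title code otherwise used with the Ant1 vector, and were kept as a group of their own. Title numbers 20, 21 and 22 occur both among Ant1 vector knockout and among control vector knockout ND6 hearts, and were read as different hearts. No heart without a vector was analysed in bulk, and the labels used here give no age, sex or time of collection.

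Each heart had 2 to 8 repeat libraries, which were summed, and heart totals lay between 16827518 and 54779297 reads. CPM are counts relative to the scaled total of the heart. The 6 genes had from 104 reads (Tet1) to 3045 reads (Ppp1r10) in a heart. Slc25a4 stood at 0.219 to 2.03 CPM in the 6 control vector hearts of both knockout genotypes and at 174 to 241 CPM in the 4 Ant1 vector knockout hearts, against 8464 to 11380.4 CPM in all wild type hearts. Among Ant1 vector knockout ND6 hearts it was 55.6 CPM in heart 37, 66.7 CPM in heart 5 and 0.732 CPM in heart 8, so heart 8, labelled with the Ant1 vector, was at the level of control vector hearts. Hearts 61 and 91, labelled with the control vector, had 169 and 151 CPM. Summed cardiomyocyte markers (8 of 8 on the panel) lay between 73172.8 and 80183 CPM in all groups. Summed fibroblast markers (5 of 5, none at 0) were lower in knockout than in wild type hearts under both vectors, at 1890.4 to 2273.8 CPM against 2375.2 to 2396.3 CPM with the Ant1 vector and 1567.2 to 1974.2 CPM against 2446.4 to 2754.7 CPM with the control vector. Summed endothelial markers (4 of 4, none at 0) were higher with the Ant1 vector, at 459 to 474 CPM against 340 to 349 CPM in knockout hearts and 385 to 460 CPM against 327 to 366 CPM in wild type hearts. The part of these cells in the values of the 6 genes was not tested.

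The 6 genes belong to no single pathway. Banp encodes a nuclear protein that binds CGCG-containing elements of CpG island promoters when they are unmethylated, and Tet1 encodes an enzyme that oxidises 5-methylcytosine in DNA, a step of demethylation. Ppp1r10 encodes PNUTS, the subunit that holds protein phosphatase 1 in the nucleus and takes part in transcription termination. Gpr22 encodes an orphan G protein-coupled receptor found mainly in heart and brain. Arhgap32 encodes a GTPase-activating protein known best from neurons, and Mpv17l encodes a membrane protein of the Mpv17 family that has been linked to peroxisomes and reactive oxygen metabolism.

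Banp, on chromosome 8 (mm10, 121949750 to 122029258, plus strand), went in the direction opposite to the other 5 genes. With the Ant1 vector it stood at 42.7, 46.9, 45.9 and 39.8 CPM in knockout hearts 27, 20, 21 and 22, against 26.2, 22.5 and 24.6 CPM in wild type hearts 81, 83 and 80. With the control vector it stood at 30.3, 35.2 and 29.8 CPM in knockout hearts 35, 36 and 38, against 44.3, 53.9, 46.0 and 31.4 CPM in wild type hearts 23, 24, 25 and 70. Every Ant1 vector knockout heart lay above every Ant1 vector wild type heart, whereas with the control vector the knockout hearts were low and overlapped only wild type heart 70. The log2 knockout change was 0.84 ± 0.15 (SE) with the Ant1 vector and -0.47 ± 0.15 with the control vector, a difference of 1.31 ± 0.21. The first exon region of Banp overlaps Gm27011, a long noncoding RNA on the opposite strand, and the whole gene lies within the span of Gm20388. The amplicon's place in the gene was not used here, so reads of these partners cannot be told apart from those of Banp.

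Tet1, on chromosome 10 (62804570 to 62908996, minus strand), was the gene with the fewest reads. Under the Ant1 vector it stood at 7.78, 4.51, 3.81 and 4.05 CPM in knockout hearts 27, 20, 21 and 22, against 10.3, 8.57 and 10.2 CPM in wild type hearts 81, 83 and 80. Under the control vector it stood at 6.47, 6.95 and 7.74 CPM in knockout hearts 35, 36 and 38, against 6.58, 5.35, 4.73 and 5.01 CPM in wild type hearts 23, 24, 25 and 70. Tet1 was thus low in knockout hearts under the Ant1 vector, with heart 27 nearest to wild type. In control vector hearts knockout heart 35 lay below wild type heart 23, and the other knockout hearts lay above every wild type heart. The log2 knockout change was -0.92 ± 0.19 with the Ant1 vector and 0.38 ± 0.19 with the control vector. Without heart 27 the change under the Ant1 vector was -1.22, and the vector change in knockout hearts was -0.77, against -0.47 with it.

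Ppp1r10, on chromosome 17 (35916434 to 35932283, plus strand), had the most reads of the 6, and its exons overlap the microRNA gene Mir1894 on the same strand. With the Ant1 vector it stood at 49.0, 30.1, 50.3 and 49.0 CPM in knockout hearts 27, 20, 21 and 22, against 66.9, 78.8 and 84.2 CPM in wild type hearts 81, 83 and 80. With the control vector it stood at 86.1, 77.1 and 80.1 CPM in knockout hearts 35, 36 and 38, against 54.6, 54.9, 55.3 and 47.8 CPM in wild type hearts 23, 24, 25 and 70. The hearts did not overlap under either vector, and the order of the genotypes was opposite. The log2 knockout change was -0.78 ± 0.14 with the Ant1 vector and 0.61 ± 0.14 with the control vector.

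Arhgap32, on chromosome 9 (32116136 to 32268446, plus strand), had the same arrangement. The Ant1 vector hearts had Arhgap32 at 21.3, 15.8, 15.6 and 14.9 CPM in knockout hearts 27, 20, 21 and 22, against 26.8, 23.1 and 30.0 CPM in wild type hearts 81, 83 and 80. The control vector hearts had Arhgap32 at 29.8, 28.0 and 26.0 CPM in knockout hearts 35, 36 and 38, against 17.8, 13.4, 16.9 and 17.5 CPM in wild type hearts 23, 24, 25 and 70. The hearts were again apart under both vectors, and heart 27 was the highest of the Ant1 vector knockout hearts. The log2 knockout change was -0.65 ± 0.17 with the Ant1 vector and 0.77 ± 0.17 with the control vector, a difference of -1.42 ± 0.24.

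Gpr22, on chromosome 12 (31706867 to 31713947, minus strand, inside the span of Cog5 on the other strand with no shared exon), had knockout changes below 0 under both vectors. Under the Ant1 vector it stood at 18.6, 12.8, 11.6 and 10.5 CPM in knockout hearts 27, 20, 21 and 22, against 40.3, 37.0 and 41.4 CPM in wild type hearts 81, 83 and 80. Under the control vector it stood at 30.2, 22.7 and 30.9 CPM in knockout hearts 35, 36 and 38, against 38.5, 31.7, 27.6 and 34.9 CPM in wild type hearts 23, 24, 25 and 70. The receptor gene was low in every Ant1 vector knockout heart and overlapped between genotypes with the control vector. The log2 knockout change was -1.55 ± 0.20 with the Ant1 vector and -0.25 ± 0.20 with the control vector. The control vector change was -0.12 without knockout heart 36, so its sign is not settled. For the other 5 genes the changes lay on opposite sides of 0, with that of Mpv17l under the control vector near 0.

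Mpv17l, on chromosome 16 (13903161 to 13949619, plus strand), differed between genotypes under the Ant1 vector, while under the control vector its hearts overlapped. The Ant1 vector hearts had Mpv17l at 4.80, 5.28, 4.32 and 5.44 CPM in knockout hearts 27, 20, 21 and 22, against 11.6, 11.6 and 11.9 CPM in wild type hearts 81, 83 and 80. The control vector hearts had Mpv17l at 11.4, 9.81 and 8.76 CPM in knockout hearts 35, 36 and 38, against 9.29, 8.36, 12.2 and 6.96 CPM in wild type hearts 23, 24, 25 and 70. The log2 knockout change was -1.24 ± 0.20 with the Ant1 vector and 0.12 ± 0.19 with the control vector, where the change is smaller than its error and was 0.00 without wild type heart 70 and 0.01 without knockout heart 35. A change of sign is therefore not shown for Mpv17l.

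**Figure D1:**
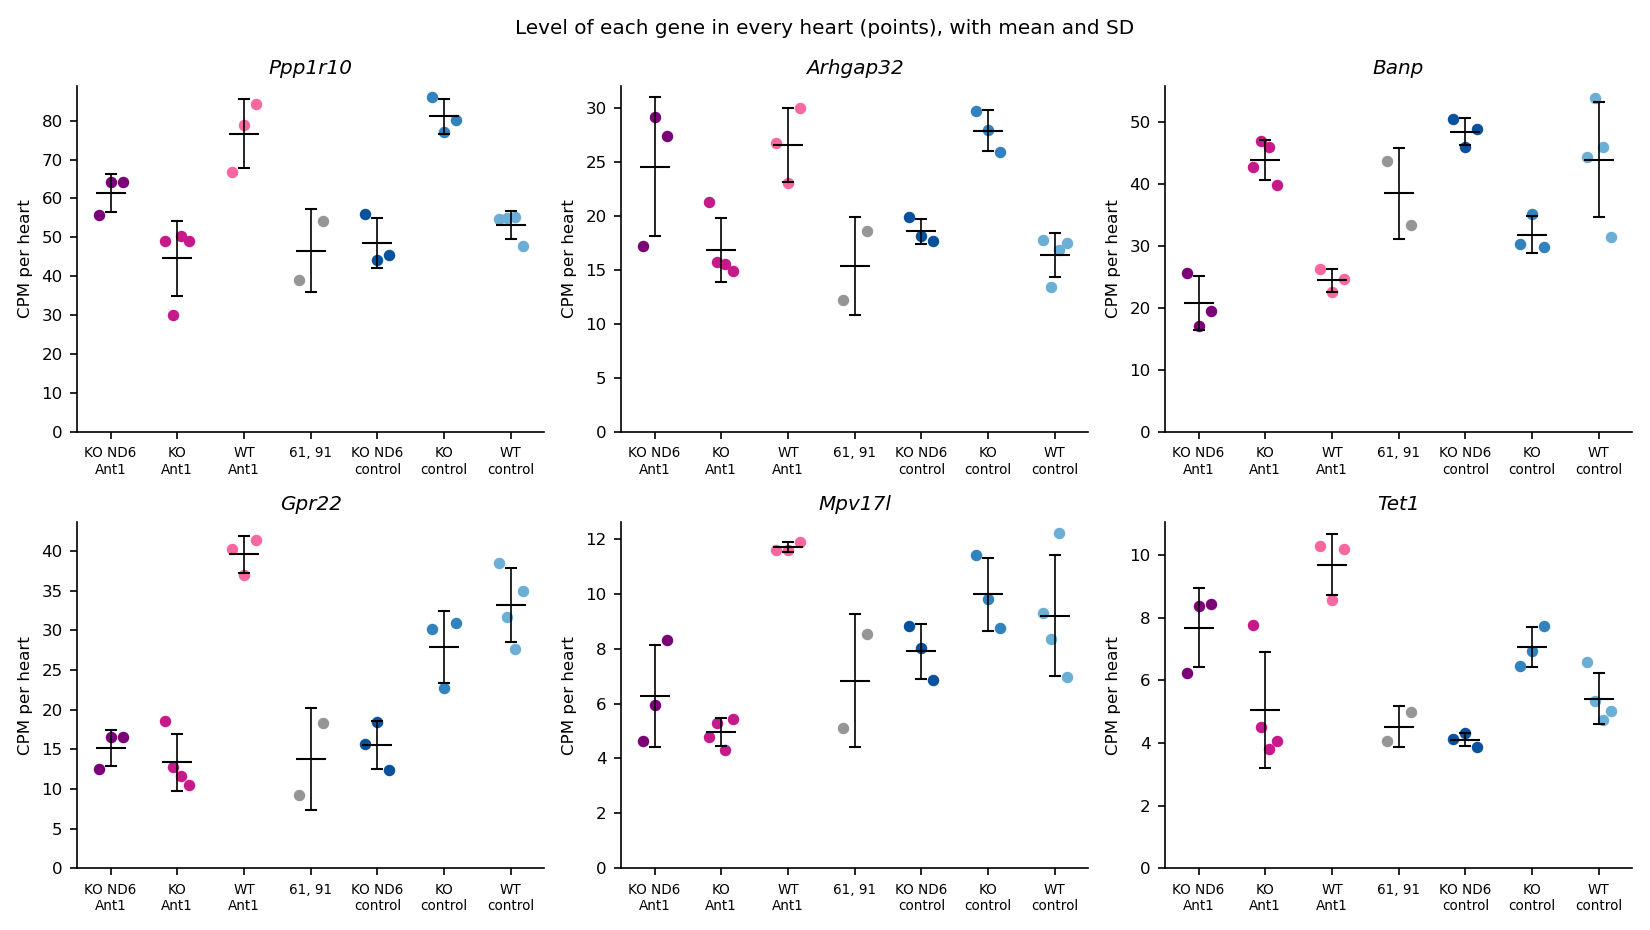
Level of each of the 6 genes in CPM (y axis) for every heart (points), by genotype and vector (x axis), with the mean and SD of each group as black bars; KO is knockout, WT wild type, and hearts 61 and 91 stand apart from both vectors. Banp is high in Ant1 vector knockout hearts and low in Ant1 vector wild type hearts, and Ppp1r10, Arhgap32 and Tet1 show the mirror image.

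Seen over all 6 genes, the hearts of 5 genes were all lower, and those of Banp all higher, in Ant1 vector knockout hearts than in Ant1 vector wild type hearts. This compares with 19.9% of all tested genes whose hearts do not overlap in that contrast. With the control vector the hearts of 2 genes, Ppp1r10 and Arhgap32, were apart and those of the other 4 overlapped, against 26.7% of all tested genes that were apart. Both contrasts served to choose the genes, so these counts describe the choice. The nearest gene inside the threshold of the difference was Adam19 (log2 1.20) and the nearest outside was Uba3 (log2 -0.51).

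The vector changes in knockout and in wild type hearts use the same levels. Means of Ppp1r10 were 44.6 ± 9.70 CPM (SD, n = 4) in Ant1 vector knockout hearts and 81.1 ± 4.62 CPM (SD, n = 3) in control vector knockout hearts. In wild type hearts they were 76.6 ± 8.87 CPM (SD, n = 3) with the Ant1 vector and 53.1 ± 3.58 CPM (SD, n = 4) with the control vector. The vector thus went with a lower level in knockout hearts (log2 -0.86 ± 0.14) and a higher level in wild type hearts (log2 0.53 ± 0.14). Arhgap32 had log2 vector changes of -0.72 ± 0.17 in knockout and 0.70 ± 0.17 in wild type hearts, and Tet1 of -0.47 ± 0.19 in knockout hearts, which overlapped between vectors through heart 27, and 0.83 ± 0.19 in wild type hearts. Banp went the other way, with 0.47 ± 0.15 in knockout and -0.85 ± 0.15 in wild type hearts. For Gpr22 and Mpv17l the change lay in the knockout hearts (log2 -1.05 ± 0.20 and -1.01 ± 0.20), while in wild type hearts the vector changes of 0.25 ± 0.20 and 0.35 ± 0.19 came with overlapping hearts.

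**Figure D2:**
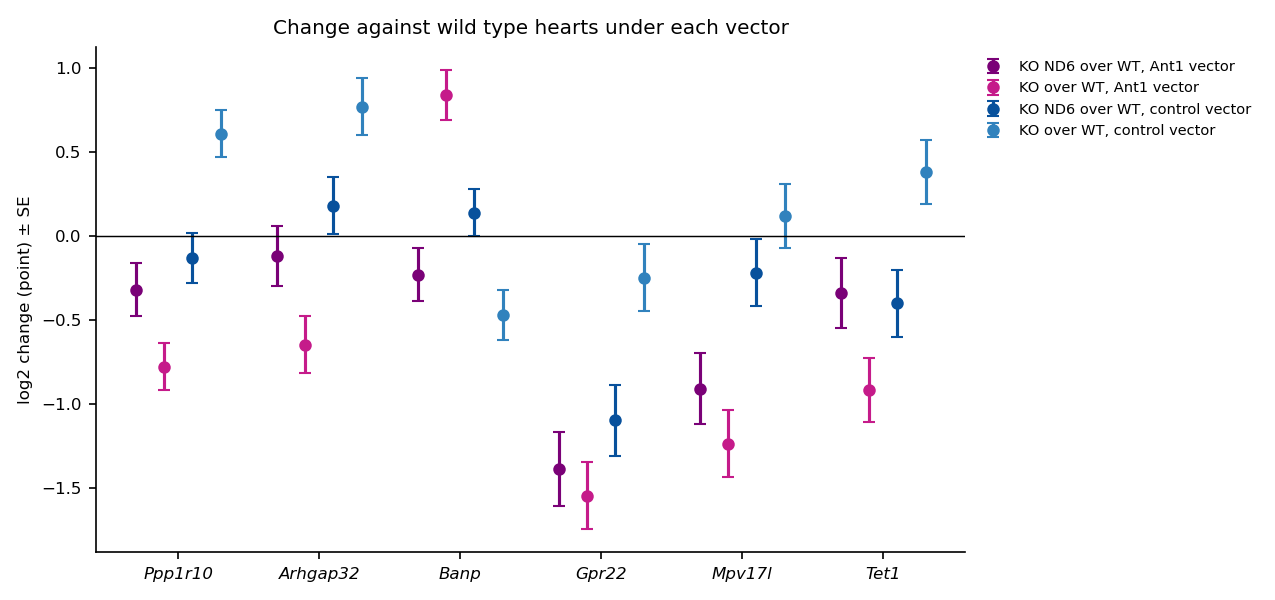
Log2 change against wild type hearts given the same vector (y axis, point with SE) for each gene (x axis), in knockout ND6 and knockout hearts under the Ant1 vector and under the control vector. The knockout points lie on opposite sides of 0 for 5 genes, though the control vector knockout point of Mpv17l lies within its SE of 0. For Gpr22 all 4 points lie below 0.

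The knockout ND6 hearts were not used to choose the genes, which leaves their vector change open to a test. The test is not fully apart from the choice, because its spread was estimated over all 7 groups. Most knockout ND6 hearts also share library tables with knockout hearts that chose the genes. In these hearts Banp fell to 25.6, 17.1 and 19.5 CPM in Ant1 vector hearts 37, 5 and 8, against 50.4, 46.0 and 48.9 CPM in control vector hearts 20, 21 and 22. Every Ant1 vector heart was below every control vector heart. The log2 change was -1.22 ± 0.16, with an adjusted p of 0.00033 in edgeR. Tet1 rose to 6.22, 8.36 and 8.45 CPM in Ant1 vector hearts 37, 5 and 8, against 4.14, 4.31 and 3.88 CPM in control vector hearts 20, 21 and 22, again with no overlap. The log2 change was 0.89 ± 0.21, with an adjusted p of 0.0283 in edgeR. The Tet1 call was lost when any one of hearts 5, 8, 20, 21 or 22 was left out (adjusted p from 0.0715 to 0.0992) and held without heart 37 (0.0185), while the Banp call held without each of the 6 hearts. With hearts 61 and 91, described further on, counted as Ant1 vector hearts, neither call held (Banp log2 -0.80, edgeR adjusted p = 0.0945; Tet1 log2 0.63, edgeR adjusted p = 0.207).

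The other 4 genes did not pass. Ppp1r10 stood at 55.7, 64.2 and 64.1 CPM in Ant1 vector hearts 37, 5 and 8, against 55.9, 44.1 and 45.4 CPM in control vector hearts 20, 21 and 22 (log2 0.34 ± 0.16, edgeR adjusted p = 0.231). Arhgap32 stood at 17.2, 29.2 and 27.4 CPM in the same Ant1 vector hearts, against 19.9, 18.2 and 17.7 CPM in the control vector hearts (log2 0.39 ± 0.18, edgeR adjusted p = 0.229). For both genes hearts 5 and 8 were high and heart 37 was not. Gpr22 stood at 12.5, 16.5 and 16.5 CPM with the Ant1 vector and 15.7, 18.4 and 12.4 CPM with the control vector (log2 -0.04 ± 0.22, edgeR adjusted p = 0.947). Mpv17l stood at 4.63, 5.93 and 8.30 CPM with the Ant1 vector and 8.83, 8.03 and 6.84 CPM with the control vector (log2 -0.34 ± 0.21, edgeR adjusted p = 0.380).

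Of the 6 genes, 1 rose and 1 fell, where 390 of 15403 genes tested were called in that contrast, which is 2.53%, with 270 higher and 120 lower. An unadjusted p under 0.05 in edgeR was found for 4 of the 6, and for 3008 of the 15403 genes tested. The share called over all genes was 1.05% without heart 8, 0.754% without heart 20, 0.71% without heart 21 and 1.5% without heart 22. The hearts of 2 of 6 genes did not overlap, against 24.9% of all tested genes. The median log2 change of the 6 was 0.15, against 0.004 over all tested genes. For Banp, Tet1, Ppp1r10 and Arhgap32 the sign of the vector change in knockout ND6 hearts was that of wild type hearts and opposite to that of knockout hearts. For Gpr22 (log2 -0.04) and Mpv17l (log2 -0.34) it was that of knockout hearts and opposite to that of wild type hearts. The difference between genotypes was not tested, since the knockout and wild type values chose the genes.

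**Figure D3:**
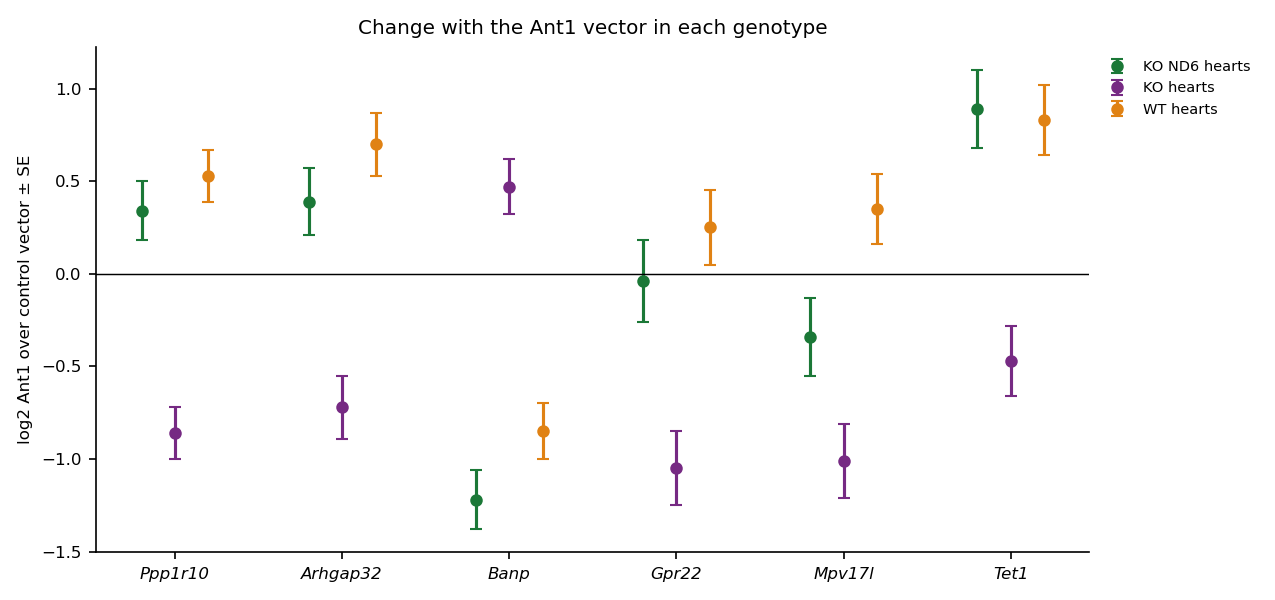
Log2 change with the Ant1 vector over the control vector (y axis, point with SE) for each gene (x axis) in knockout ND6, knockout and wild type hearts. For Banp the knockout ND6 and wild type points lie at -1.22 and -0.85, below 0, and the knockout point at 0.47 lies above it.

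Several other values differ along with the knockout ND6 vector contrast, and their part in it was not tested. No library table holds both Ant1 vector and control vector hearts of the labelled groups, so table and vector cannot be told apart in any vector contrast. Heart 8 had no more Slc25a4 than control vector hearts, yet its Banp of 19.5 CPM and Tet1 of 8.45 CPM lay with heart 5. Without heart 8 the Banp change was -1.17 (edgeR adjusted p = 0.0027) and the Tet1 change 0.82 (edgeR adjusted p = 0.0854), and the count of called genes was 162. Fos, named after its values were seen, lay between 16.3 and 112 CPM in the 3 Ant1 vector knockout ND6 hearts and between 1.25 and 12.6 CPM in the other 19 hearts. Summed endothelial markers (4 of 4 on the panel, none at 0) were 503 to 592 CPM in Ant1 vector and 366 to 424 CPM in control vector knockout ND6 hearts, and summed atrial markers (4 of 4, none at 0) were 1266.2 to 4625.7 CPM and 4698.9 to 4833.5 CPM. In whole hearts, fewer cells of a type and less RNA per cell cannot be told apart.

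Hearts 61 and 91 gave a further comparison that the choice did not use. Banp stood at 43.6 and 33.3 CPM in hearts 61 and 91, below the 46.0 to 50.4 CPM of the 3 control vector knockout ND6 hearts (log2 -0.33 ± 0.17, edgeR adjusted p = 0.927). Tet1 stood at 4.05 and 4.99 CPM, against 3.88 to 4.31 CPM (log2 0.14 ± 0.24, edgeR adjusted p = 0.971). Heart 61 was below heart 91 in Ppp1r10 (39.0 and 54.1 CPM), Arhgap32 (12.2 and 18.6 CPM), Gpr22 (9.24 and 18.3 CPM) and Mpv17l (5.12 and 8.54 CPM). None of the 6 genes passed in edgeR or in DESeq2, and none had an unadjusted p under 0.05; over all genes 4 passed, which is 0.0260%, and 815 had an unadjusted p under 0.05. That count of 4 was 2 without control vector heart 20 and 1 without heart 61 or without heart 91. Their Slc25a4 of 169 and 151 CPM was above that of every control vector knockout ND6 heart, while their Banp was above, and their Tet1 below, that of every heart labelled knockout ND6 with the Ant1 vector.

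Against wild type hearts given the same vector, the knockout ND6 hearts gave further values; these contrasts share the wild type hearts with the choice and carry no test. Gpr22 was lower in knockout ND6 hearts under both vectors (log2 -1.39 ± 0.22 with the Ant1 vector and -1.10 ± 0.21 with the control vector), with no overlap in either. Mpv17l was lower under the Ant1 vector (log2 -0.91 ± 0.21) and overlapped under the control vector (-0.22 ± 0.20). Banp had -0.23 ± 0.16 with the Ant1 vector and 0.14 ± 0.14 with the control vector, and its hearts overlapped under both vectors. Tet1 was lower under both vectors, at -0.34 ± 0.21 with the Ant1 vector and -0.40 ± 0.20 with the control vector, with no overlap in either. Ppp1r10 had -0.32 ± 0.16 with the Ant1 vector, where all knockout ND6 hearts were below wild type, and -0.13 ± 0.15 with the control vector. Arhgap32 had -0.12 ± 0.18 with the Ant1 vector and 0.18 ± 0.17 with the control vector, and its hearts overlapped under both. The share of all tested genes without overlap is not given here for these contrasts. Absence of overlap therefore does not set any of these genes apart. In edgeR, 19.5% of all tested genes were called in this comparison under the Ant1 vector and 12.7% under the control vector.

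Libraries of 1 deposited table share a range of barcodes, and ratios taken within a table involve no difference between tables. In 2 tables Ant1 vector knockout heart 20 was set against wild type hearts 81 and 83, joined by heart 80 in 1 of them. There the log2 ratio of mean CPM was 0.80 to 1.01 for Banp, -1.36 to -1.27 for Ppp1r10 and -0.89 to -0.60 for Arhgap32. It was -1.76 to -1.49 for Gpr22 and -1.25 to -1.10 for Mpv17l. Tet1 was 3.95 to 4.99 CPM in the 4 libraries of heart 20, against 7.45 to 11.9 CPM in the 10 libraries of the wild type hearts. In the 3 tables that hold control vector knockout heart 35 with wild type hearts 23, 24 and 25, the ratio was -0.71 to -0.65 for Banp, 0.59 to 0.67 for Ppp1r10 and 0.80 to 0.93 for Arhgap32. The signs of these 3 genes were opposite between the Ant1 vector tables and the control vector tables, which are different tables; the hearts are among those that chose the genes, so the ratios are a description. Tet1 (0.15 to 0.28) and Mpv17l (0.12 to 0.25) were slightly above 0 under the control vector, and Gpr22 ran from -0.37 to 0.11. Each of these sets rests on 1 knockout heart. Heart 20 had the lowest Ppp1r10 of the Ant1 vector knockout hearts, at 30.1 CPM against 49.0 to 50.3 CPM in the others. A fit of single libraries with the table as a covariate moved the Ppp1r10 knockout change under the Ant1 vector to -1.33, against -0.78 without it. No other Ant1 vector knockout heart shares a table with wild type hearts, so in that fit this change rests on heart 20. Without heart 20 the change in the fit of summed hearts was -0.63.

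Tables that hold knockout ND6 and knockout hearts allowed the same kind of ratio between those genotypes. With the Ant1 vector Banp was lower in knockout ND6 than in knockout libraries in all 4 tables (log2 -1.25 to -0.72), and with the control vector it was higher in all 3 tables (0.50 to 0.73). Ppp1r10 had the reverse signs, at 0.15 to 0.36 in the 4 Ant1 vector tables and -0.72 to -0.61 in the 3 control vector tables. Mpv17l ran from -0.14 to 0.63 with the Ant1 vector and from -0.33 to 0.09 with the control vector. Arhgap32, Gpr22 and Tet1 split among the Ant1 vector tables: the ratio was below 0 in both tables with hearts 37 and 27 and above 0 in both with hearts 5, 8, 21 and 22. The SD of Ppp1r10 between repeat libraries was highest in hearts 37 and 27 of all 22 hearts, and so was that of Arhgap32, while for Banp, Gpr22, Mpv17l and Tet1 other hearts had as wide or wider spread than 1 or both of them. Ppp1r10 was at 28.3 to 79.8 CPM in the 8 libraries of heart 27 and 40.5 to 83.5 CPM in the 8 of heart 37. Each of these hearts had 4 libraries in each of 2 tables, and the mean of Ppp1r10 was 42.3 CPM in one table and 71.5 CPM in the other for heart 37, and 38.3 CPM and 59.7 CPM for heart 27. Slc25a4 also varied between their libraries, from 24.6 to 77.1 CPM in heart 37 and from 71.5 to 289 CPM in heart 27, while in Ant1 vector knockout hearts 20, 21 and 22 it stayed between 188 and 247 CPM. Whether all 8 libraries come from 1 heart was not tested.

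**Figure D4:**
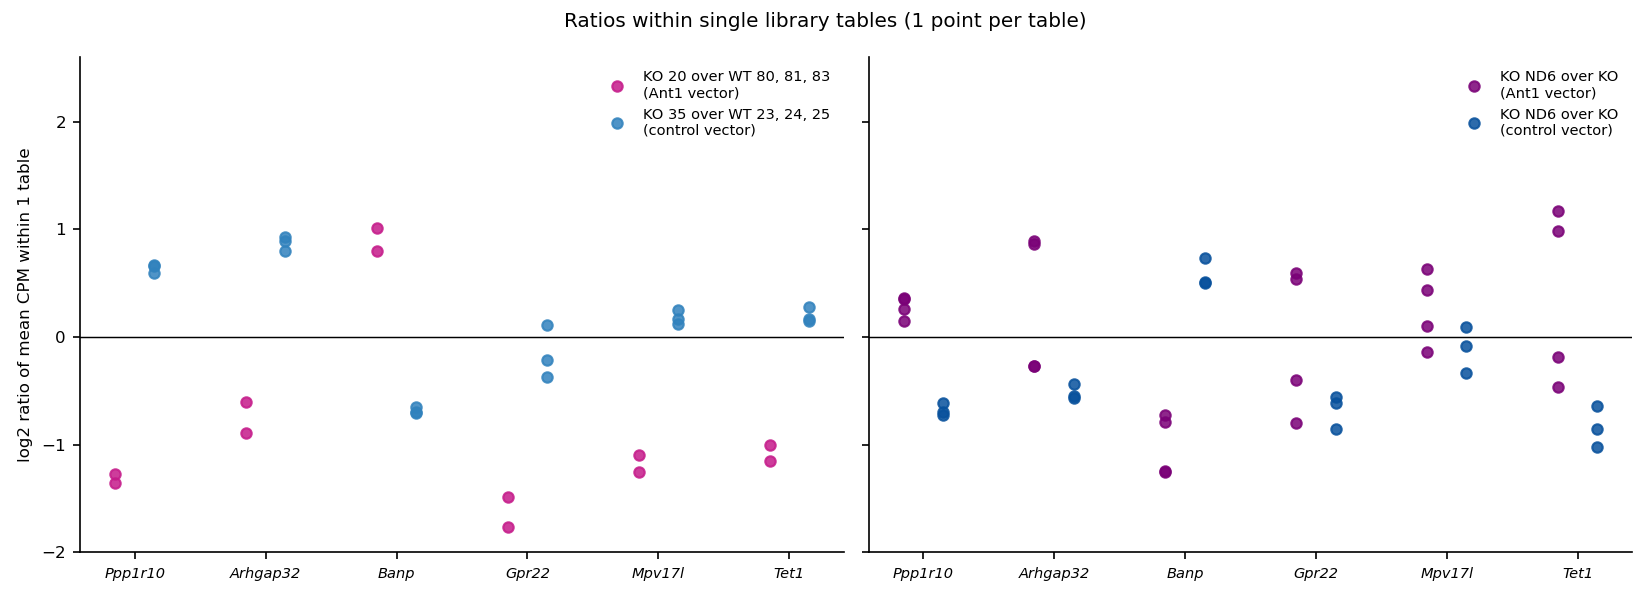
Log2 ratio of mean CPM between hearts of the same library table (y axis), 1 point per table, for each gene (x axis), with knockout over wild type hearts on the left and knockout ND6 over knockout hearts on the right, Ant1 vector and control vector in different colours. On the left, all Ant1 vector points of Banp, Ppp1r10, Arhgap32, Mpv17l and Tet1 lie on the other side of 0 from their control vector points. The control vector points of Gpr22 lie on both sides, from -0.37 to 0.11. The control vector points on the left rest on knockout heart 35. Without heart 35 the Mpv17l change over hearts was 0.01, and a change of sign is not shown for this gene.

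Across the 22 hearts the pairs of genes ranged widely in how far they varied together. Pearson's r of log2 CPM was 0.80 between Arhgap32 and Tet1, 0.79 between Ppp1r10 and Arhgap32, 0.79 between Gpr22 and Mpv17l and -0.76 between Banp and Tet1. It was weaker for other pairs, at 0.45 between Mpv17l and Tet1, -0.26 between Banp and Gpr22 and -0.21 between Banp and Mpv17l. After subtracting group means, r was 0.68 between Arhgap32 and Tet1, 0.41 between Ppp1r10 and Arhgap32 and 0.34 between Gpr22 and Mpv17l. It was -0.19 between Banp and Tet1, and the highest was 0.77, between Gpr22 and Tet1. These hearts share groups and library tables, the genes were chosen for a common pattern, and the coefficients are descriptions.

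**Figure D5:**
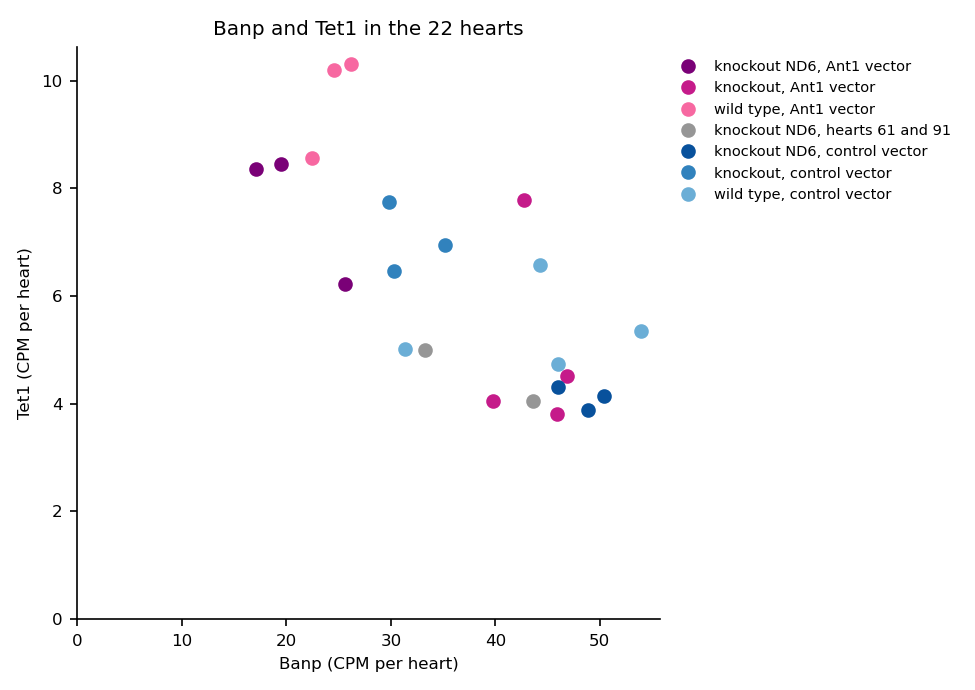
Banp (x axis) against Tet1 (y axis) in CPM, 1 point per heart for 22 hearts, coloured by group. Ant1 vector wild type and knockout ND6 hearts lie at low Banp and high Tet1, and control vector knockout ND6 hearts at high Banp and low Tet1.

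The genes most like each member over the 22 hearts were found by the same coefficient. Gpr22 was most like Limch1 (r = 0.97), Efna5 (0.92) and 9230114K14Rik (0.92). Limch1, which encodes an actin-associated protein, ranged from 178 to 277 CPM over the hearts, and Efna5, an ephrin ligand, from 10.8 to 27.2 CPM. Tet1 was most like Fign (0.89), Bahcc1 (0.85) and Clcn1 (0.84), and Banp most like Slc35e2 (0.88), Srfbp1 (0.83) and Gm6277 (0.81). Mpv17l was most like Gnpda2 (0.87), Asah1 (0.84), which encodes acid ceramidase, and Pfkfb1 (0.84). Ppp1r10 and Arhgap32 shared Dhtkd1 (0.80 and 0.84) and LOC105246501 (0.82 and 0.83); the third gene was Pdp2 (0.81) for Ppp1r10 and Crhr2 (0.82) for Arhgap32.

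Genes next to the members on the chromosome were examined by the same fit. Of 12 nearby tested genes, those with the nearest midpoint before and after each member, Cog5 among them although it spans Gpr22, none passed an adjusted p of 0.05 in edgeR for the difference of knockout changes, in which 1 had an unadjusted p under 0.05 and DESeq2 called 0; the largest in size was Dus4l beside Gpr22, at log2 -0.62 with an adjusted p of 0.125. Over all genes, 0.500% passed for that difference and 2259 had an unadjusted p under 0.05 in edgeR. Mrps18b and Abcf1, on either side of Ppp1r10, were higher in knockout hearts under both vectors. Their log2 changes were 0.38 and 0.71 with the Ant1 vector (edgeR adjusted p = 0.00819 and 0.000243). With the control vector they were 0.57 and 0.42 (edgeR adjusted p = 0.00012 and 0.0105). Zfpm1, beside Banp, passed with the Ant1 vector only (log2 0.37, edgeR adjusted p = 0.031). Of all tested genes, 9.89% were called for the knockout change with the Ant1 vector and 14.4% with the control vector. In knockout ND6 hearts 1 of the 12, Abcf1, passed for the vector change (log2 0.49, edgeR adjusted p = 0.0274), against 2.53% of all genes. Cog5, which spans Gpr22, had knockout changes of -0.06 with the Ant1 vector and -0.02 with the control vector.

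Other genes of the members' pathways came from 6 lists with 72 genes, of which 65 were tested. For the difference of knockout changes, 0 rose and 1 fell in edgeR (1.54%, against 0.500% of all genes), and DESeq2 called 4. An unadjusted p under 0.05 in edgeR was found for 11 of the 65, and for 2259 of all 15403 genes tested. The DESeq2 share over all genes is not given here for this contrast. The gene that fell was Abcd3, a peroxisomal fatty acid transporter listed with Mpv17l, at log2 -0.72 with an edgeR adjusted p of 0.0468. Its mean was 45.9 CPM in Ant1 vector knockout and 36.2 CPM in Ant1 vector wild type hearts, and 77.2 CPM in control vector knockout and 36.8 CPM in control vector wild type hearts. For the vector change in knockout ND6 hearts, 0 rose and 1 fell in edgeR (1.54%, against 2.53% of all genes), and DESeq2 called 6. An unadjusted p under 0.05 in edgeR was found for 17 of the 65, and for 3008 of all 15403 genes tested. The DESeq2 share of all genes in this contrast is given further on. The gene that fell was Rgs4, a regulator of G protein signalling listed with Gpr22, at log2 -0.47 with an edgeR adjusted p of 0.0294. Its means were 18.1 CPM with the Ant1 vector and 25.0 CPM with the control vector.

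The counts in single lists below are to be read beside the counts over all genes given above. List medians in the difference of knockout changes ran from -0.12 to 0.16. The lowest was of the Mpv17 family and peroxisome (11 tested genes) and the highest of inhibitory G protein signalling (15 tested genes). Among genes of DNA methylation, Tet2 had a log2 difference of -0.42 (edgeR adjusted p = 0.208), and no gene of the list's 12 tested passed, while 1 had an unadjusted p under 0.05 and DESeq2 called 0. In the vector contrast of knockout ND6 hearts the median of this list was 0.22, with Tet3 at 0.59 (edgeR adjusted p = 0.0562) and Dnmt3a at 0.36 (edgeR adjusted p = 0.0808); none passed in edgeR, 6 had an unadjusted p under 0.05, and DESeq2 called 2. Among the 9 tested CpG island genes listed with Banp, none passed in edgeR in that contrast, 3 had an unadjusted p under 0.05 and DESeq2 called 1, and the median was 0.13. Among the 9 tested partners of Ppp1r10, Ppp1cb, a catalytic subunit of protein phosphatase 1, had a log2 change of -0.33 (edgeR adjusted p = 0.0503); none passed in edgeR, 4 had an unadjusted p under 0.05 and DESeq2 called 1.

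Promoter windows of 300 bases, from 250 before to 50 after a transcription start, are shown because CGCG is part of the known binding element of Banp, itself 1 of the 6 genes. RefSeq (GRCm38.p6) gave 7 windows for 4 of the 6 genes, Ppp1r10, Arhgap32, Gpr22 and Tet1. The letters CGCG, which read the same on both strands, were searched with overlaps counted, and are in capitals. Of all 32851 windows, 38% hold CGCG, and of the 7 windows here 2 do. The Arhgap32 window at chr9:32032053-32032352 (plus strand) holds 11 matches, that of Tet1 at chr10:62887275-62887574 (minus strand) holds 2, and that of Ppp1r10 at chr17:35916946-35917245 (plus strand) holds 0 with 24 CpG.
Arhgap32: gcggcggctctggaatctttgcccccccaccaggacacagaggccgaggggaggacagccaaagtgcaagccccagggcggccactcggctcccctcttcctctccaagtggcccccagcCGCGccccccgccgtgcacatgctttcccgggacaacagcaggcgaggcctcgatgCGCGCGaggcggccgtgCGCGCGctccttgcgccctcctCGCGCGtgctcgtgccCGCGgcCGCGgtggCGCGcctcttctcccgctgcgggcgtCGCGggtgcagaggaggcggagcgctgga
Tet1: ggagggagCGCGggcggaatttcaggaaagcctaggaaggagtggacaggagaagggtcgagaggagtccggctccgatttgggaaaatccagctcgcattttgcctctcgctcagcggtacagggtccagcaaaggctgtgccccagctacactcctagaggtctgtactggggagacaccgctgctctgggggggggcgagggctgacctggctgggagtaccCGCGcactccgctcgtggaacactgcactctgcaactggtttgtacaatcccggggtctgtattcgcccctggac
Ppp1r10: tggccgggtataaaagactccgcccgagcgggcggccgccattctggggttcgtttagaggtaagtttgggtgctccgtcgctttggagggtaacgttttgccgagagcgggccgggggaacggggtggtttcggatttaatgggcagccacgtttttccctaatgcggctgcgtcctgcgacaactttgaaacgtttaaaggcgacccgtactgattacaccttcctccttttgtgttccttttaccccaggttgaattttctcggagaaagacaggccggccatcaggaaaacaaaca
The RefSeq start of this Arhgap32 window lies before the GENCODE start of the gene given above, and that of Tet1 lies within the GENCODE gene. A match is a description of the letters and not a site of binding.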

How the data were processed

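Total RNA of mouse hearts was sequenced as AmpliSeq amplicons on an Ion Torrent S5, per the labels' protocols. The authors deposited raw counts of reads for each amplicon, with mm10 as the build, per the submitters' processing notes; for the aligner, the counting and any filter nothing was stated. The 14 tables gave 112 bulk libraries of 2893780 to 8531273 reads and 23930 amplicons; 27 symbols turned into dates were restored. Single-nucleus samples (3) were left out.

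The unit of replication was the heart: libraries with 1 title number, 1 genotype and 1 title code were summed. That the number marks a heart is assumed, and p values measure the spread between hearts read this way. Libraries 80a and 80b, whose label and title code differ, joined no group. All 7 groups were fitted together in edgeR 4.0.16 under R 4.3.3 (filterByExpr, then TMM, then the quasi-likelihood test). P values were adjusted by the Benjamini-Hochberg method over 15403 genes, with a threshold of 0.05. CPM use TMM-scaled totals; r uses log2 CPM with a prior count of 2. Reads without molecular identifiers are not independent molecules. Scripts were tested on simulated data. Positions come from GENCODE M21 (mm10) and promoters from RefSeq.

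Alternatives were other size factors, no filter, DESeq2 1.42.0, each heart left out, only the compared groups, the table of a library as a covariate (limma 3.58.1), and other placings of hearts 61 and 91 and of libraries 80a and 80b. Genes named besides the 6 members are Slc25a4, the 3 genes with the highest r per member, the tested genes with the nearest midpoint before and after each, and in each list up to 3 genes with the smallest adjusted p; Fos, Adam19 and Uba3 fall outside this rule. The members and lists were chosen with earlier results of these data known. One of the 6 lists enters the totals over all lists and is not reported here by itself.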

Additional observations from a re-analysis of the deposited data

Results flagged for a closer look

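In 3 of the 12 groups of 4 hearts examined (6 genes in Ant1 vector knockout and control vector wild type hearts), 1 heart stood far from the other 3. Chance gives about 1 in 20 for independent groups, whereas these groups reuse the same hearts. Ppp1r10 was 30.1 CPM in Ant1 vector knockout heart 20, against 49.0 to 50.3 CPM in the others of that group. Ppp1r10 was 47.8 CPM in control vector wild type heart 70, against 54.6 to 55.3 CPM in the others. Arhgap32 was 21.3 CPM in Ant1 vector knockout heart 27, against 14.9 to 15.8 CPM in the others. Each of these 3 hearts was the only one of its group in its library tables, so heart and table cannot be told apart.

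The knockout change differed between the Ant1 vector and the control vector, by the choice of the genes, by a log2 of -1.39 for Ppp1r10, -1.42 for Arhgap32, 1.31 for Banp, -1.30 for Gpr22, -1.36 for Mpv17l and -1.30 for Tet1. These values carry no test here.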

How the results depend on the processing

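For the Ant1 vector over the control vector in knockout ND6 hearts, 2.53% of genes tested were called (390 genes). Shares are of the genes tested under each setting, which differ in number. The share was 6.36% with DESeq2 (826 genes, 472 higher and 354 lower), 1.32% with only the compared groups (182), 1.72% with hearts 61 and 91 as control vector hearts (258), 0.134% with them as Ant1 vector hearts (20), and 0.71% to 2.36% with 1 heart left out. With hearts 61 and 91 as Ant1 vector hearts, Banp (log2 -0.80, edgeR adjusted p = 0.0945) and Tet1 (0.63, adjusted p = 0.207) no longer passed. Over the settings that keep all hearts the adjusted p ran from 1.36e-10 to 0.0945 for Banp and from 0.00387 to 0.207 for Tet1. Gpr22 turned to 0.02 with hearts 61 and 91 as control vector hearts and ran from -0.18 to 0.11 with 1 heart left out. For hearts 61 and 91 over the other control vector knockout ND6 hearts, 0.0260% were called (4 genes); the share was 0.0587% with DESeq2 (9), 0.0984% with only the compared groups (14), 0.279% with the table of a library as a covariate (43), and 0.00615% to 0.0327% with 1 heart left out. There Ppp1r10 turned to 0.01 with the table as a covariate; with 1 heart left out Ppp1r10 ran from -0.31 to 0.16, Gpr22 from -0.74 to 0.24, Mpv17l from -0.62 to 0.11 and Tet1 from -0.02 to 0.28. The cause of these moves was not tested. Values with no test were followed for the difference of knockout changes, the knockout changes, and the vector changes in knockout and wild type hearts. Of these, 415 of 420 moved by less than the spread between hearts and 0 changed sign. The changes of knockout ND6 against wild type hearts were not among them. The Ppp1r10 difference became -1.97 with the table as a covariate, a fit whose Ant1 vector knockout change rests on knockout heart 20. A table covariate could not be fitted in a vector contrast. No paired analysis was possible because the groups compared share fewer than 2 title numbers. Tet1, at 104 to 413 reads per heart, is limited most by depth.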

Other observations

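Libraries 80a and 80b of wild type heart 80, labelled with the control vector under the Ant1 vector title code, are set here beside libraries 80c and 80d, labelled with the Ant1 vector. Banp was 23.1 and 25.1 CPM in 80a and 80b and 24.6 and 24.6 CPM in 80c and 80d. Ppp1r10 was 82.3 and 81.8 CPM in 80a and 80b and 83.2 and 85.3 CPM in 80c and 80d. Arhgap32 was 29.3 and 27.9 CPM in 80a and 80b and 28.8 and 31.2 CPM in 80c and 80d. Gpr22 was 39.9 and 42.5 CPM in 80a and 80b and 40.9 and 41.9 CPM in 80c and 80d. Mpv17l was 11.6 and 9.51 CPM in 80a and 80b and 13.2 and 10.8 CPM in 80c and 80d. Tet1, with 51 and 76 reads in 80a and 80b, was 6.29 and 9.26 CPM there and 9.35 and 11.0 CPM in 80c and 80d. Wild type hearts with the control vector had 31.4 to 53.9 CPM of Banp, 47.8 to 55.3 CPM of Ppp1r10, 13.4 to 17.8 CPM of Arhgap32, 27.6 to 38.5 CPM of Gpr22, 6.96 to 12.2 CPM of Mpv17l and 4.73 to 6.58 CPM of Tet1. These ranges are of hearts summed over 4 to 6 libraries, while 80a and 80b are single libraries. Libraries 80a and 80b lay outside these ranges for Banp, Ppp1r10, Arhgap32 and Gpr22, while both libraries for Mpv17l and 80a for Tet1 lay inside them. For Gpr22 single libraries of control vector wild type heart 23 ran from 32.7 to 43.4 CPM, a range that holds both 80a and 80b. Libraries 80a and 80b share a library table with Ant1 vector hearts and with no control vector wild type heart. Table and vector therefore cannot be told apart here, and which vector 80a and 80b received was not tested.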
